A study of Rattus norvegicus with 4 samples.

Results

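Aqp4, Gfap, Gjb6, Mlc1, Slc4a4 and Sparcl1 are 6 genes known from astrocytes, the star-shaped glia of the brain and spinal cord, that did not move one way between 2 sets of captured rat vestibular ganglion cells. They were selected on the measured difference between these arrays, because some were lower and others higher in the calretinin-positive cells, so their levels and differences are a description and carry no test. They are 6 of the 11039 genes that could be read on the array. Of 9 probes with one of these names 8 were read, 6 of them in the early part of the table and 2 in the late part; the ninth, a further probe of Aqp4, lies between the parts and was not read. Early probes were read at their own row and late probes 5 rows further down, where repeated control probes matched each other. All 8 passed the limit for dim probes, a mean log2 intensity at the 40th percentile of all probes (an intensity of 0.456).

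The study captured neurons from rat vestibular ganglia by laser, guided by immunofluorescence for the calcium buffer calretinin, and hybridised pooled total RNA to 1-colour (Cy5) arrays, 2 for the calretinin-positive and 2 for the calretinin-negative cells. Per the design text, positive cells are the afferents that form calyces around vestibular hair cells and negative cells are the dimorphic and bouton afferents. The titles give these groups, while the descriptions of both negative samples use the wording for positive cells, so the groups are named by title, as positive-titled and negative-titled arrays. Strain, age, sex and the number of animals in a pool are unknown here, and nothing says that the 2 arrays of a group came from separate animals, so every spread below may be technical. A captured neuron is wrapped by satellite glia and lies beside myelinated fibres, and in pooled captures fewer cells of a type and less RNA per cell cannot be told apart.

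Each array held 35126 probes with medians of 0.990 to 0.992 on the deposited linear scale, and 21070 probes entered the tests. Over all of these, 64.2% passed at 0.05 after Benjamini-Hochberg adjustment in limma, with 40.6% up and 23.6% down in the positive-titled arrays, and in 81.7% the groups did not overlap. The median log2 change was 0.11, against 0.01 with quantile and -0.01 with cyclic loess normalization, so small rises on the deposited scale have no settled direction. Calb2, which encodes calretinin and was used to choose the cells, had intensities of 290.8 and 327.6 in the positive-titled arrays and 138.5 and 129.1 in the negative-titled ones, with its value read 5 table rows after its ID. A higher value in the positive-titled arrays goes with the titles, but Calb2 was far above the array median in the negative-titled ones too. Its log2 change was 1.21 as deposited, 0.96 with quantile and 0.91 with cyclic loess normalization.

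Astrocytes border blood vessels and the brain surface with endfeet, which are rich in the water channel AQP4 and in the membrane protein MLC1, and they are coupled to each other by gap junctions. They take up potassium and bicarbonate and release matrix proteins that act at synapses. The vestibular nerve has a central stretch with astrocytes and oligodendrocytes and a peripheral stretch, including the ganglion, with Schwann cells and satellite glia. Several of the 6 genes are also used outside the central nervous system, so their names alone do not identify a cell.

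The upstream sequences are shown because the genes fall into a lower and a higher set. The promoter windows below run from 250 bases before to 50 bases after the start of the gene, 5′ to 3′ on the strand of the gene, from RefSeq (build GRCr8), with every TTGGC or its reverse complement GCCAA, a short motif of the NFI factors that act in astrocyte development, in capitals. Gfap (chr10:88361612-88361911, minus strand) and Mlc1 (chr7:121946649-121946948, minus strand) represent the lower set and Slc4a4 (chr14:19468233-19468532, minus strand) and the first of 2 listed windows of Gjb6 (chr15:35410089-35410388, minus strand) the higher set.
Gfap: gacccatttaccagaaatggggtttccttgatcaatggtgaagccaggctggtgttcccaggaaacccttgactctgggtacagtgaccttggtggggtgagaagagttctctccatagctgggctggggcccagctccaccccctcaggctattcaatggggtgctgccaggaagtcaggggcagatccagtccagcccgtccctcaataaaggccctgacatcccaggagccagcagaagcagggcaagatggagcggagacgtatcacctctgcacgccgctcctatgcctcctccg
Mlc1: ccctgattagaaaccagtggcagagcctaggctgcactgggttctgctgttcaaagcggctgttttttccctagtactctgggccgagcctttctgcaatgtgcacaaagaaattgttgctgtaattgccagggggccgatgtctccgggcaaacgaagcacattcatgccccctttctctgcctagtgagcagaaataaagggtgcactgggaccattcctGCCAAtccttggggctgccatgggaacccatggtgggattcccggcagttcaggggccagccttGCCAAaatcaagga
Slc4a4: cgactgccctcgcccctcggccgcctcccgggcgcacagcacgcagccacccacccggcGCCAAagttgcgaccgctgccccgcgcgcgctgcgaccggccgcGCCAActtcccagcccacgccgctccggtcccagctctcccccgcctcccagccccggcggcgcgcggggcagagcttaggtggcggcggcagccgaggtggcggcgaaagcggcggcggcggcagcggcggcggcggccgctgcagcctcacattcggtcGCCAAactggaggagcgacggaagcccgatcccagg
Gjb6: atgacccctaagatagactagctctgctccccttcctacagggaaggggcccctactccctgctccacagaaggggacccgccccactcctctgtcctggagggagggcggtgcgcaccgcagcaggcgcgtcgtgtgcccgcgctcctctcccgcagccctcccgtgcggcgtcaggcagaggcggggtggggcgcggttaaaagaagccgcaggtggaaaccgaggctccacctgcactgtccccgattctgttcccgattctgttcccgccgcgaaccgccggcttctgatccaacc

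The windows differed in base composition. Slc4a4 had 78% G and C with 47 CpG dinucleotides and the shown Gjb6 window 67% with 25. Gfap had 58.7% with 6 CpG dinucleotides and Mlc1 54.3% with 6, while the median of 33469 windows was 51.7% with 7. Sparcl1 had 55% with 15, the 2 windows of Aqp4 47.3% with 5 and 51.3% with 4, and the second window of Gjb6 52.3% with 5. The NFI motif stood in Mlc1 (2 matches), Slc4a4 (3), Sparcl1 (2) and the second Gjb6 window (1), in none of the windows of Gfap and Aqp4, and in 45.8% of all windows. The STAT motif TTCNNNGAA, a palindrome, was in none of the 8 windows and in 8.87% of all. The palindromic E-box CANNTG was found in both Aqp4 windows (5 and 1 matches) and the first Gjb6 window (2), against 72.1% of all windows, and the SOX core ACAAT or its reverse complement ATTGT in Mlc1 and Sparcl1 (1 each), against 33.7%. No match overlapped another, and no searched motif separated the lower from the higher set. A match is a stretch of letters and not a shown binding site.

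On the deposited scale 3 of the 6 genes, Aqp4, Gfap and Mlc1, were lower in the positive-titled arrays and 3, Slc4a4, Gjb6 and Sparcl1, were higher. The groups did not overlap for any of the 8 probes, where the same held for 81.7% of all tested probes. Log2 differences (positive minus negative) ran from -6.78 to 1.75. Aqp4 and Gfap lay further from 0 than any gene of the higher set, while Mlc1 lay at -0.69.

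**Figure D1:**
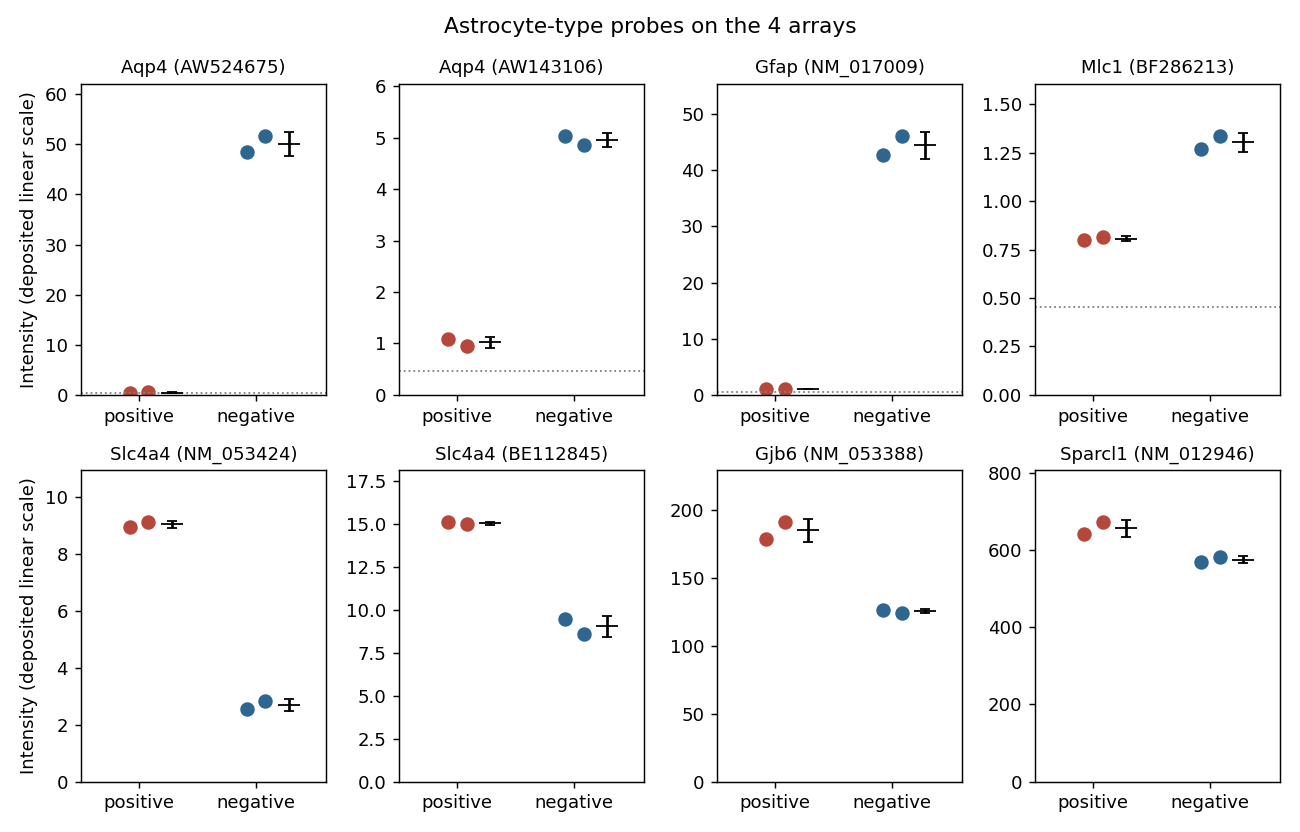
Intensity (deposited linear scale, each panel with its own axis from 0) of the 8 probes on the 2 positive-titled arrays (left, red) and the 2 negative-titled arrays (right, blue), with the group mean and SD in black and the limit for dim probes, 0.456, as a dotted line in panels where values lie near it. Both arrays of a group lie on the same side in every panel. The log2 difference ranges from -6.78 for the first Aqp4 probe to 1.75 for the first Slc4a4 probe, and is 0.19 for Sparcl1. The first Aqp4 probe is at the dim limit on the positive-titled arrays, and with 0.5 added its difference is -5.71.

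Aqp4 encodes aquaporin-4, the main water channel of astrocyte endfeet, also found in supporting cells of the inner ear. Its early probe (GenBank AW524675) had intensities of 0.344 and 0.603 in the positive-titled arrays, against 48.4 and 51.7 in the negative-titled ones. The 2 negative arrays were bright and close together, while the positive arrays lay at the dim limit, 1 of them below it. The group means were 0.473 ± 0.183 on the positive-titled arrays and 50.1 ± 2.36 on the negative-titled arrays (SD, n = 2 each). The difference of mean log2 values was -6.78 ± 0.20 (SE). Every SE given here is limma's moderated one, which borrows from the spread of all tested probes. It can be narrower or wider than a probe's own spread. The pooled log2 SD between replicates was 0.41 for this probe, and for Mlc1 it was 0.043 beside an SE of 0.13. Because 1 positive-titled array was below the dim limit, the fold depends on how dim values are handled. With that array raised to the limit, the mean of the negative-titled arrays was 94.6-fold that of the positive-titled ones. The limit is a percentile and not a detection limit, so this is no lower bound. A constant of 0.5 added before log2 gave -5.71. The late probe (AW143106), read 5 table rows on, had 1.09 and 0.947 in the positive-titled arrays and 5.04 and 4.85 in the negative-titled ones. It also separated the groups in the same direction, by a log2 difference of -2.28 ± 0.10. The 2 probes gave 1 direction and different sizes.

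Gfap encodes glial fibrillary acidic protein, the intermediate filament protein of astrocytes, which non-myelinating Schwann cells and reactive satellite glia can also make. Its probe had 1.10 and 0.991 in the positive-titled arrays, at the level of the median probe of an array, and 42.8 and 46.2 in the negative-titled ones. Neither group held an intermediate value. The log2 difference was -5.42 ± 0.08 (SE), 37.4 times the larger of the gaps between the 2 arrays of a group, the highest such ratio among the 8 probes.

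Mlc1 encodes a membrane protein of astrocyte junctions at vessels and the brain surface, whose loss causes a leukoencephalopathy with cysts in humans. It lay near the array median in both groups. Its probe had 0.798 and 0.816 in the positive-titled arrays and 1.27 and 1.34 in the negative-titled ones. The 4 values lay above the dim limit, and those of the positive-titled arrays below the array median. The log2 difference was -0.69 ± 0.13 (SE), a far smaller separation than for Gfap or Aqp4.

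Slc4a4 encodes the sodium bicarbonate cotransporter NBCe1, which moves bicarbonate and sodium together across the membrane of astrocytes and of many epithelia. Its early probe (NM_053424) had 8.95 and 9.11 in the positive-titled arrays and 2.53 and 2.83 in the negative-titled ones. Its late probe (BE112845), the brighter one, had 15.1 and 15.0 in the positive-titled arrays and 9.48 and 8.60 in the negative-titled ones. Both probes were higher in the positive-titled arrays, with log2 differences of 1.75 ± 0.08 (SE) and 0.74 ± 0.07. As for Aqp4, the probes shared a direction and differed in size.

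Gjb6 encodes connexin 30, a gap junction protein of astrocytes that supporting cells of the inner ear and cells of the leptomeninges also use. Its probe had 179.1 and 191.0 in the positive-titled arrays and 126.5 and 124.5 in the negative-titled ones. It was bright on all 4 arrays, among the 375 brightest probes of each, and its log2 difference was 0.56 ± 0.07 (SE). After quantile normalization the difference was 0.28 and after cyclic loess 0.28, while the 1000 tested probes nearest to it in mean level had a median log2 change of 0.13.

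Sparcl1 encodes hevin, a secreted matrix protein of the SPARC family that astrocytes release at synapses and that endothelial cells and neurons also make. It had 640.5 and 671.4 in the positive-titled arrays and 568.5 and 581.3 in the negative-titled ones. Its probe ranked 1 and 3 from the top on the positive arrays and 6 and 5 on the negative arrays, and no saturation flags were at hand. The log2 difference was 0.19 ± 0.08 (SE), 2.80 times the larger replicate gap, the lowest ratio of the 8 probes. The 1000 tested probes nearest to it in mean level had a median log2 change of 0.15. The difference was 0.13 after quantile normalization and -0.14 after cyclic loess, so its direction is not settled. It is therefore counted in the higher set on the deposited scale only, while the other 5 genes kept their direction under both normalizations.

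**Figure D2:**
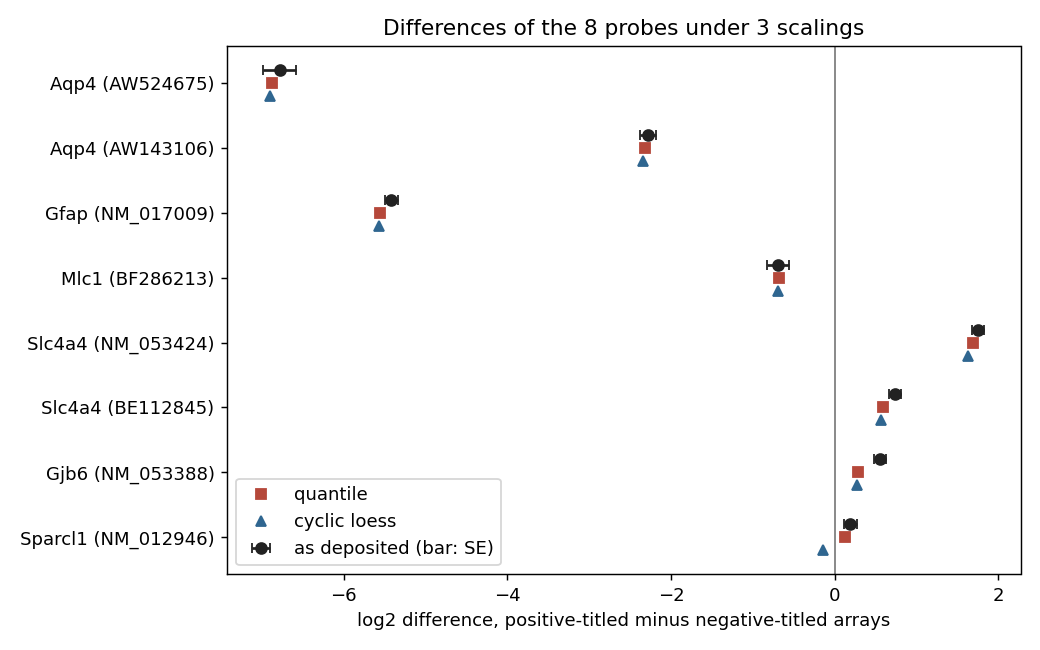
Log2 difference (positive-titled arrays minus negative, horizontal axis) of the 8 probes as deposited (circles, bar: SE), after quantile (squares) and after cyclic loess normalization (triangles). The 3 symbols stay on 1 side of 0 for every probe except Sparcl1, which lies at 0.19, 0.13 and -0.14.

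The gaps between the 2 arrays of a group were small beside most of these differences. Their median over the 8 probes was 0.0806 on the log2 scale in the positive-titled arrays and 0.0878 in the negative-titled ones. The widest, 0.811, was that of the early Aqp4 probe in the positive-titled arrays, at the dim end of the scale.

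The genes whose values over the 4 arrays lay nearest to those of each gene, after each gene's mean log2 value was subtracted, were sought among 8166 other genes, as a description over 4 arrays. For Gfap these were Mog and Mobp, 2 central myelin genes, at distances of 0.138 and 0.243 on the log2 scale. Mog had 0.985 and 1.01 in the positive-titled arrays and 42.0 and 43.8 in the negative-titled ones, so it was low and high on the same arrays as Gfap. For the early probe of Aqp4 they were Agk, a lipid kinase gene, and Kcnj8, which encodes a potassium channel subunit of mural cells, at distances of 0.853 and 0.944. Kcnj8 had 0.0724 and 0.164 in the positive-titled arrays, below the dim limit, against 6.85 and 6.11 in the negative-titled ones. Small differences have many near neighbours, and the nearest to Mlc1 were Gprc5b (0.0281) and Ifitm1 (0.0294), to Gjb6 Plekho1 (0.0132) and Cops6 (0.0255), to the brighter probe of Slc4a4 Zswim7 (0.0157) and Atg7 (0.0194), and to Sparcl1 Brms1l (0.0173) and Anp32e (0.0176).

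Other genes used as astrocyte markers were read from a list without these 6. Of 50 listed genes 33 had a probe that could be read and 24 passed the dim limit. Lower in the positive-titled arrays were 14, while 4 rose and 6 did not pass (limma, Benjamini-Hochberg), where 23.6% of all tested probes fell and 40.6% rose. Their median log2 change was -0.49, against 0.11 over all tested probes. Their summed intensities overlapped, with 1147 to 1191 in the positive-titled arrays and 1169 to 1221 in the negative-titled ones. Quantile normalization gave 15 down and 3 up, cyclic loess 16 down and 3 up. With each probe tested on its own spread 5 fell and 3 rose, and 7082 of all 21070 probes were called in place of 13530.

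Those that fell included Ndrg2, a gene highly expressed in mature astrocytes, with 17.1 ± 0.933 in the positive-titled arrays against 114 ± 1.59 in the negative-titled ones (SD, n = 2 each; log2 change -2.74 ± 0.07, SE). Bcan, which encodes the matrix proteoglycan brevican, had 9.31 and 9.14 on the positive-titled arrays against 35.2 and 35.5 on the negative-titled arrays. Ttyh1, a tweety family membrane protein gene, and Tril, a Toll-like receptor cofactor gene, had log2 changes of -2.54 and -2.55. Nes, which encodes the intermediate filament protein nestin, fell by 1.06 on the log2 scale, and Slc1a3, the glutamate transporter gene of astrocytes and satellite glia, had a log2 change of -0.20 (adjusted p = 0.0414, limma). The adjusted p of the other 5 was at most 6.1e-05.

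Those that rose were Clu, Apoe, Vim and Htra1. Clu, which encodes the secreted chaperone clusterin, had 67.9 and 70.7 in the positive-titled arrays against 31.6 and 33.8 in the negative-titled ones (log2 change 1.09 ± 0.07, SE). Apoe, the lipid carrier gene, rose by 0.78 and Vim, the intermediate filament gene of many non-neuronal cells, by 0.59 on the log2 scale, and these 3 kept their call under both normalizations. Htra1, a secreted protease gene, rose by 0.31, which was 0.02 with either normalization. Opposite directions were thus found among astrocyte markers outside the 6 as well. Over all tested probes 40.6% rose and 23.6% fell, so such a mix is not particular to astrocyte markers.

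Kcnj10, which encodes the potassium channel Kir4.1 of astrocytes and satellite glia, had 4.18 and 4.13 in the positive-titled arrays and 4.32 and 4.55 in the negative-titled ones and did not pass (adjusted p = 0.281, limma). It fell by 0.21 on the log2 scale with cyclic loess. Gja1, the connexin 43 gene, had 0.561 ± 0.0299 on the positive-titled arrays and 0.684 ± 0.124 on the negative-titled arrays (SD, n = 2 each) and did not pass (adjusted p = 0.292, limma). Slc1a2, which encodes the main glutamate transporter of astrocytes, was below the dim limit, with 0.130 and 0.0819 in the positive-titled arrays and 0.0623 and 0.683 in the negative-titled ones. Glul and Aldh1l1, for glutamine synthetase and a folate enzyme of astrocytes, lie between the parts of the table and were not read.

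**Figure D3:**
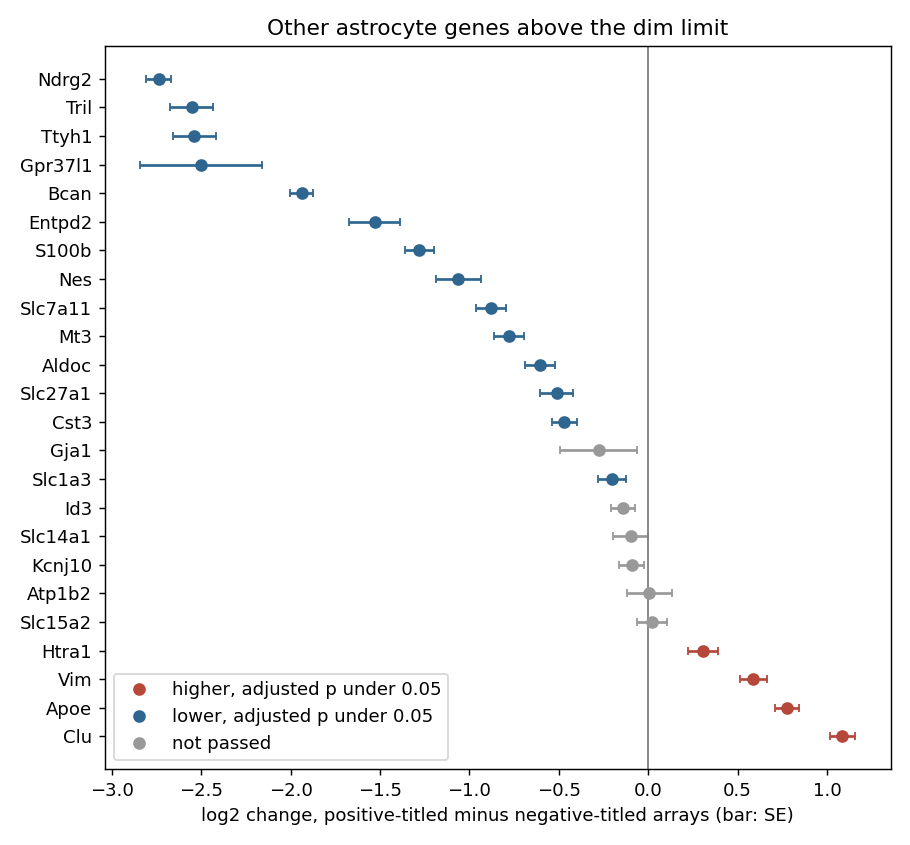
Log2 change (positive-titled arrays minus negative, horizontal axis, bar: SE) of the 24 other astrocyte genes above the dim limit, one gene a row. Of them 14 fell (blue), from Ndrg2 at -2.74, and 4 rose (red), up to Clu at 1.09, and 6 did not pass (grey).

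Genes whose products work beside AQP4 and MLC1 at endfeet, such as the dystrophin complex, basement membrane laminins and the chloride channel gene Clcn2, were called in both directions. Of 13 tested, 3 rose, 3 fell and 7 did not pass, with a median log2 change of 0.04. The share called, 46.2%, stands beside 64.2% of all tested probes (40.6% up, 23.6% down). Those that rose were Dtnb (beta-dystrobrevin) with 22.1 and 23.3 in the positive-titled arrays against 12.9 and 14.0 in the negative-titled ones, Clcn2 (log2 change 0.47) and Lamb2 (0.22). Those that fell were Itgb1, the beta-1 integrin gene, Cav1 (caveolin-1) and Lamc1, a laminin gene, with log2 changes of -2.27, -0.96 and -0.53. Dag1 and Dmd, the dystroglycan and dystrophin genes, did not pass, with mean intensities of 0.642 and 0.814 in the positive-titled arrays and 0.572 and 0.750 in the negative-titled ones. Quantile normalization left 2 up and 3 down and cyclic loess 2 up and 5 down, Lamb2 being the gene that no longer rose.

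Among other aquaporins, connexins and the related pannexins, 22 of 29 listed genes could be read and 9 of these were below the dim limit, among them Aqp1. Of the 13 tested, 4 fell, 3 rose and 6 did not pass, with a median log2 change of -0.22. Calls thus made up 53.8% of the list, against 64.2% of all tested probes (40.6% up, 23.6% down). Aqp9, an aquaglyceroporin gene, had 9.19 and 9.13 in the positive-titled arrays against 14.2 and 14.7 in the negative-titled ones. Gjb1, the connexin 32 gene of myelinating Schwann cells and oligodendrocytes, had 2.63 and 2.98 on the positive-titled arrays against 5.80 and 5.50 on the negative-titled arrays (log2 change -1.01). Panx3 and Gja4 fell, with log2 changes of -0.40 and -0.26. Panx2 and Aqp11 rose, with log2 changes of 0.57 and 0.39, and Panx1 had 1.14 and 1.15 in the positive-titled arrays and 0.403 and 0.110, below the dim limit, in the negative-titled ones. Gjb2, which encodes connexin 26, the partner of connexin 30 in inner ear supporting cells, had 132.2 and 125.6 in the positive-titled arrays and 122.8 and 112.4 in the negative-titled ones and did not pass (adjusted p = 0.155, limma). It did not pass with either normalization, where its log2 change was -0.08 and -0.14.

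Of 31 acid-base transport genes listed beside Slc4a4, 25 could be read and 13 passed the dim limit. Of these 3 rose, 5 fell and 5 did not pass, with a median log2 change of -0.12. The 61.5% called is near the 64.2% of all tested probes, of which 40.6% were up and 23.6% down. With names of the early part only, 3 of 6 tested genes rose and 1 fell, with a median of 0.44, so the direction of the list turned. Slc4a10, another sodium-coupled bicarbonate transporter gene, is used by neurons. It had 5.14 and 4.52 in the positive-titled arrays against 1.41 and 1.44 in the negative-titled ones (log2 change 1.76 ± 0.09, SE). The early Slc4a4 probe had 1.75 and the brighter late one 0.74. Slc9a2, a sodium-proton exchanger gene, had 127.6 and 135.0 on the positive-titled arrays against 33.2 and 33.8 on the negative-titled arrays, and Atp6v1a, a proton pump subunit gene, rose by 0.54 on the log2 scale. The carbonic anhydrase genes Car4 and Car14, whose products sit on the cell surface, fell with log2 changes of -2.20 and -1.29, Slc9a3 with -1.45 and the anion exchanger gene Slc4a1 with -0.40. The remaining gene that fell was Slc16a1, a monocarboxylate transporter gene, which was named after its value was seen and did not pass with quantile normalization. The changes of Slc4a10 and Slc9a2 kept their call and direction under both normalizations.

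Of 13 tested genes of the SPARC family and other matricellular proteins, 7 rose, 2 fell and 4 did not pass, with a median log2 change of 0.34. The 69.2% called is near the 64.2% of all tested probes (40.6% up, 23.6% down), and with each probe on its own spread 2 rose and 1 fell. With either normalization 6 rose and 4 fell. Sparc itself, the nearest relative of Sparcl1, had 215.5 and 235.5 in the positive-titled arrays and 264.5 and 251.7 in the negative-titled ones and did not pass (adjusted p = 0.0527, limma), while it fell by 0.44 with quantile and by 0.50 with loess normalization. Ccn3, a growth regulator gene, had 2.65 and 2.61 on the positive-titled arrays against 0.627 and 0.746 on the negative-titled arrays (log2 change 1.94), and Tnc (tenascin-C), Spp1 (osteopontin) and Thbs2 (thrombospondin-2) rose, with log2 changes of 0.70, 0.58 and 0.56. Spock1 and Spock3, which encode proteoglycans of the SPARC family, fell, with log2 changes of -1.46 and -1.33.

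Markers of other cells that a capture could hold were also called in both directions. Calls made up 71.4% of tested oligodendrocyte markers and 77.8% of Schwann and satellite glia markers. Over all tested probes they made up 64.2% (40.6% up, 23.6% down). Of 7 tested oligodendrocyte markers 4 fell as Gfap and Aqp4 did, led by Mog and Mobp, while 1 rose and 2 did not pass. The summed intensities of the 7 were 215 to 216 in the positive-titled arrays and 346 to 352 in the negative-titled ones. Cldn11 was the largest part of these sums, with 187.0 and 182.1 in the positive-titled arrays and 200.5 and 188.3 in the negative-titled ones. The 2 that did not pass were Opalin and Cldn11, with log2 changes of 0.13 and -0.07. Cldn11 was called lower with quantile (-0.34) and cyclic loess normalization (-0.37). Mag, Ermn, Olig2 and Hapln2, also of that list, were below the dim limit on each array. Olig1, not tested for its low mean, had 0.0787 and 0.107 on the positive-titled arrays against 0.598 and 0.572, above the limit, on the negative-titled arrays. Of 9 Schwann and satellite glia markers 7 fell, with sums of 150.5 to 159 on the positive-titled arrays against 270.3 to 285 on the negative-titled arrays, and Mbp, a myelin gene of both nerve divisions, had 1.56 and 1.54 on the positive-titled arrays against 13.4 and 13.4 on the negative-titled arrays. Ncmap, a peripheral myelin gene, fell by 1.96 on the log2 scale, and Erbb3 was below the dim limit on each array. Cdh19 was not tested, since its mean over the 4 arrays was below the limit, but it had 0.0932 and 0.0972 on the positive-titled arrays against 0.880 and 0.765, above the limit, on the negative-titled arrays. S100b and Kcnj10 stand in this list and in that of other astrocyte genes.

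Of 10 endothelial and mural markers, the cells that endfeet contact, 9 fell. Their sums were 32.1 to 32.8 on the positive-titled arrays against 98.9 to 102 on the negative-titled arrays. Calls made up 90% of this list, 88.9% of tested immune markers and 80% of inner ear markers. The share of all tested probes was 64.2% (40.6% up, 23.6% down). Abcc9, a potassium channel partner gene of mural cells, had 0.515 and 0.495 in the positive-titled arrays against 6.55 and 6.36 in the negative-titled ones, and Vwf, the von Willebrand factor gene of endothelium, 6.55 and 7.42 on the positive-titled arrays against 32.0 and 34.7 on the negative-titled arrays; Kdr and Acta2 were below the dim limit. Blood and immune markers fell in 6 of 9 cases and rose in 2, with sums of 97.1 to 101 on the positive-titled arrays against 179 to 188 on the negative-titled arrays and with the complement genes C1qa and C1qc lower by log2 changes of -2.04 and -1.89; Lyz2 was below the limit. With either normalization 1 immune marker rose and 6 fell. Of 5 inner ear supporting and dark cell markers 4 fell, with sums of 172 to 181 on the positive-titled arrays against 208 to 225 on the negative-titled arrays, among them Slc12a2 (-1.48) and Epyc (-1.31). The other 5 were not tested for their low means. Of these, Kcnq1 had 0.471 and 0.508, above the limit, on the positive-titled arrays against 0.201 and 0.110 on the negative-titled arrays, and Atp6v1b1 had 0.375 and 0.422 on the positive-titled arrays against 0.0520 and 0.170 on the negative-titled arrays, so both were higher on the positive-titled arrays. Kcne1, Slc26a4 and Coch were below the limit on each array.

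Of 12 tested meningeal, mesothelial and fibroblast markers 8 rose, as the higher set did, 2 fell and 2 did not pass. Their sums were 1112 to 1153 in the positive-titled arrays and 752 to 835 in the negative-titled ones. Calls made up 83.3% of this list and 75% of tested neuron markers, against 64.2% of all tested probes (40.6% up, 23.6% down). Upk1b, a uroplakin gene of urothelium and mesothelium, had 24.9 and 27.1 on the positive-titled arrays against 4.42 and 3.93 on the negative-titled arrays, and Aldh1a2, a retinoic acid synthesis gene of the meninges, 49.2 ± 1.17 on the positive-titled arrays against 20.1 ± 0.129 on the negative-titled arrays (SD, n = 2 each); Lum and Igf2 were below the dim limit. Of 12 neuron markers, which include Calb2, the gene used to choose the cells, 8 rose, 1 fell and 3 did not pass, with sums of 1468 to 1544 on the positive-titled arrays against 1244 to 1250 on the negative-titled arrays. Nefh, a neurofilament gene, rose by 1.62 and Prph, the peripherin gene, fell by 1.01 on the log2 scale, and Snap25 was below the dim limit. Without Calb2, an alternative chosen after seeing the data, 7 of 11 rose and 1 fell, and the sums were 1177 to 1217 on the positive-titled arrays against 1105 to 1121 on the negative-titled arrays. With either normalization 5 neuron markers rose and 3 fell, or 4 and 3 without Calb2. Named after their values were seen, the remaining calls in counts of 5 or fewer were Mal, Ugt8, Otog and Tecta, which fell, Aspa of the oligodendrocyte list and Cd68 and Ptprc of the immune list, which rose, and Dcn and Col1a1 of the meningeal list, which fell. The part of any of these cells in the differences of the 6 genes was not tested.

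**Figure D4:**
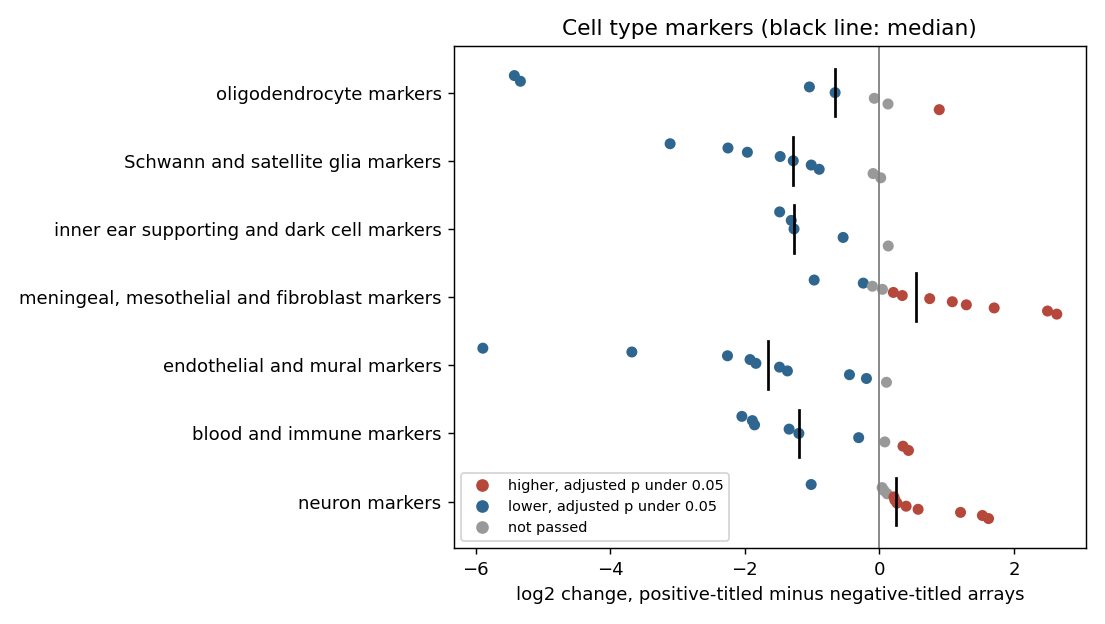
Log2 change (positive-titled arrays minus negative, horizontal axis) of each tested marker gene in 7 cell type lists (rows), with the median of each list as a black line. Medians lie between -0.66 and -1.66 for the glial, inner ear, endothelial and immune lists, at 0.25 for neurons and at 0.54 for the meningeal list.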

How the data were processed

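Total RNA of laser-captured cells from rat vestibular ganglia was profiled on 4 arrays, 1-colour (Cy5) per the labels, and grouped by sample title. The deposited unit is a linear intensity for each probe; which scanner, background subtraction or scaling made it is not stated in the sources used here. Precision is limited by having 4 arrays.

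Entries of -9999 were read as missing. Missing values (9 to 38 on an array) and zero or negative values (532 to 776) were set to the 1st percentile of that array's positive values before log2. Probes with a mean log2 value below the 40th percentile, an intensity of 0.456, were left out. limma 3.58.1 in R 4.3.3 (lmFit, eBayes with a trend, two-sided) tested 21070 probes, with Benjamini-Hochberg adjustment over all of them. The fit was also run on simulated arrays with independent noise, a setting that cannot show how it does if replicates are technical. Log2 changes are positive minus negative, and the brightest probe stands for a gene. SE values, also those drawn as bars, are limma's moderated ones and not the spread of a single probe.

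Names came from the platform annotation, and gene IDs were matched to a RefSeq table for current symbols: 16677 probes had 1 symbol, 163 several. IDs up to 144112 were read at their own row and IDs from 185001 on 5 table rows later. Repeated control probes had r = 0.997 at their own row in the early part (28 pairs), and in the late part 0.127 at their own row and 0.935 at 5 rows later (54 pairs; across probes, which are not independent replicates). The 2010 single-symbol probes between were not read.

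The 6 genes and all lists were chosen with earlier results of these data known. Named genes were the 6, relatives of the 6, and up to 4 genes of each list and direction by smallest p. Added to these were up to 2 genes of each marker list and the 2 nearest genes by Euclidean distance. Dag1, Dmd, Slc16a1, S100b, Mal, Ugt8, Otog, Tecta, Opalin and Cldn11 were named after their values were seen. So were Aspa, Cd68, Ptprc, Dcn and Col1a1, and the markers below the dim limit. Alternatives were a replicate block, quantile and cyclic loess normalization, other dim limits, floors, added constant, variance priors, threshold, name readings, averages over probes and dropping each array. The numbers rep1 and rep2 are not stated to pair samples, and the deviations of same-numbered arrays from their group means had r = 0.000316 over 21070 probes. Promoter windows are from RefSeq, GRCr8. Figures were drawn with matplotlib 3.10.9.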

Additional observations from a re-analysis of the deposited data

How the results depend on the processing

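Over all alternatives run, 70 values of the 8 probes moved by less than 1 SD between replicates, 17 moved by more and 1 changed sign. Many of the 70 were fixed by construction. The other floor and the handling of missing values left all 8 probes unchanged, as did the name readings for early probes. Dropping 1 array shifts a difference by only part of a replicate gap, which stays under this SD. The 70 are therefore no measure of stability. Of the list counts 83 stayed within 1.5 times and 8 did not. These counts compare total calls and take no account of direction, so the 83 are no measure of stability either. Names read at their deposited row gave 10 up and 13 down for astrocyte genes, against 4 and 14 in the main fit. For acid-base genes they gave 7 up and 2 down, against 3 and 5. Both were counted within 1.5 times. Cyclic loess turned Sparcl1 to -0.14 and gave -5.56 for Gfap, 0.28 for Gjb6, and 1.63 and 0.56 for the early and late Slc4a4 probes; quantile normalization gave -5.56 for Gfap, 0.28 for Gjb6, 0.59 for the late Slc4a4 probe and 0.13 for Sparcl1. A constant of 0.5 added before log2, which draws dim values toward 0, gave -5.71 and -1.84 for the Aqp4 probes, -4.87 for Gfap, -0.46 for Mlc1 and 1.58 for the early Slc4a4 probe. Names read at their deposited row gave -0.20 for the late Aqp4 probe and 0.64 for the late Slc4a4 probe, and means over both probes -4.53 for Aqp4 and 1.25 for Slc4a4; with early names only the late probes have no value. With each probe on its own spread 7082 of all probes were called, and of the lists 8 astrocyte (3 up, 5 down), 4 aquaporin and connexin (2 up, 2 down), 5 acid-base (2 up, 3 down) and 3 SPARC family genes (2 up, 1 down). With early names only, fewer genes were tested and 9 astrocyte, 4 acid-base (3 up, 1 down) and 5 SPARC family genes were called, and with the 60th percentile as dim limit 5 SPARC family genes. Except where a construction is named, the cause was not tested.

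Leaving out 1 array at a time, with the lone array assumed to vary like the other group, gave 12382 to 12916 calls over all probes, 16 to 17 for astrocyte genes, 5 for membrane partners, 5 to 6 for aquaporins and connexins, 6 to 10 for acid-base genes and 9 to 10 for the SPARC family. The log2 differences then ran from -7.19 to -6.38 and from -2.39 to -2.18 for the Aqp4 probes, from -5.49 to -5.34 for Gfap, from -0.73 to -0.65 for Mlc1, from 1.68 to 1.83 and from 0.67 to 0.81 for the Slc4a4 probes, from 0.51 to 0.61 for Gjb6 and from 0.16 to 0.22 for Sparcl1. The replicate block gave 13711 calls over all probes, 18 for astrocyte genes, 6 for membrane partners, 7 for aquaporins and connexins, 7 for acid-base genes and 10 for the SPARC family. Precision is limited by 2 arrays a group and by low signals such as Aqp4 and Mlc1 in the positive-titled arrays. At the bright end it is limited by unknown saturation for Sparcl1.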
